A study of Arabidopsis with 12 samples.

Results

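The 10 genes described here belong to the jasmonate pathway of Arabidopsis. They are the lipoxygenase genes LOX2 (AT3G45140), LOX3 (AT1G17420) and LOX4 (AT1G72520), the synthesis genes AOS (AT5G42650), AOC2 (AT3G25770) and OPR3 (AT2G06050), the transcription factor gene MYC2 (AT1G32640), the repressor genes JAZ1 (AT1G19180) and JAZ10 (AT5G13220), and the response gene VSP2 (AT5G24770). They were chosen by locus, with earlier results of these data known, as 10 of the 37825 genes in the deposited table. All 10 passed a filter on low values, as did 22462 genes in all. It asked for 3 or more libraries with a TPM of 1 or more. TPM is the length-corrected share of a library that a gene's transcripts take, so levels can be compared between genes. Between libraries it compares shares only, and a gene's share also moves when other genes change.

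RNA of seedlings was sequenced from mac3a3b, a double mutant of MAC3A and MAC3B, and from the wild type (WT), as controls and 3 days after a heat treatment at 37 °C. MAC3A and MAC3B encode homologous proteins of a complex that associates with the spliceosome. The 4 groups, mutant 3 days, WT 3 days, mutant control and WT control, held 3 libraries each. The comparison asks how the transcriptomes of the genotypes differ around heat stress.

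Seedlings of all groups grew on ½MS medium with 1.2% sucrose. The titles give the mutant as DM, taken here to be mac3a3b, the mutant that the series text names. Alleles, seedling age and the duration of heat were not stated in the sources used here. The titles name a control, for which the series text has 0 hours after heat, and whether control seedlings were heated is therefore unclear. No group is labelled as unheated at 3 days, so heat and the passing of time cannot be told apart in a change from control to 3 days, called the response below. The labels do not say whether the 3 libraries of a group came from separate cultures, so the p-values speak only for variation among the libraries at hand, and this may be technical.

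Jasmonate is made from linolenic acid of the plastid membranes. Lipoxygenases add oxygen to it, allene oxide synthase and allene oxide cyclase turn the product into the cyclic precursor OPDA, and OPDA reductase and β-oxidation in the peroxisome complete the hormone. Conjugated to isoleucine, jasmonate joins the receptor COI1 to JAZ proteins, which are then degraded, and this frees MYC2 and related factors to switch on genes of defence and wound responses, among them those of the synthesis enzymes and of the JAZ proteins themselves.

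At both sampling points the mutant had less MAC3A and MAC3B RNA, each difference at an adjusted p of 1.40e-08 or lower by limma. MAC3A averaged 6.12 ± 0.623 TPM in mutant 3 days, 60.4 ± 1.03 in WT at 3 days, 9.74 ± 0.590 in mutant control and 34.7 ± 1.19 in WT control (SD, n = 3 each). MAC3B averaged 9.44 ± 0.581 TPM in mutant 3 days, 133 ± 4.69 in WT at 3 days, 10.4 ± 0.415 in mutant control and 72.6 ± 3.32 in WT control. Replicates of a group correlated at r of 0.982 to 0.989 across genes, and each library counted as 1 sample. Since each library's TPM summed to nearly the same total (999986.2 to 999995.5), read depth is unknown. Root markers were led by PYK10, which made up most of their sum in every group. The summed TPM over all 9 lay between 46.5 and 63.2 in mutant 3 days, 192 and 271 in WT 3 days, 1692 and 1850.0 in mutant control, and 2533 and 2923 in WT control. Without PYK10 the sum of the other 8 lay between 14.8 and 15.2 in mutant 3 days, 39.1 and 48.1 in WT 3 days, 68.0 and 88.1 in mutant control, and 72.7 and 82.6 in WT control, so the genotypes overlapped in control. Single markers did not all follow the sum, with SHR at means of 3.44 TPM in mutant 3 days, 11.3 in WT at 3 days, 10.8 in mutant control and 9.50 in WT control, and SCR at means of 18.7 TPM in mutant control and 13.3 in WT control. In mutant 3 days 4 of the 9 averaged at least 1 TPM and the root markers WER and EXPA7 were listed at 0 in all 3 libraries, against 7 of 9 in WT at 3 days, 8 in mutant control and 9 in WT control. The 7 markers of photosynthetic leaf cells were detected in all groups and summed to between 5920 and 7785 TPM in mutant 3 days, 7873 and 10069 in WT 3 days, 49055 and 51629 in mutant control, and 45695 and 46585 in WT control. At 3 days RBCS1A averaged 2045 TPM in the mutant and 1980 in WT, and RBCS3B 2324 and 2079, so neither mean was lower. RCA, LHCA1, LHCB3, LHCB4.1 and PSBO1 had lower means in the mutant, with LHCB3 at 94.2 TPM against 714 in WT. In whole seedlings fewer cells of a type and less RNA per cell cannot be told apart. The part of these markers in the results below was not tested.

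Among the lipoxygenase genes, LOX2, which encodes the main 13-lipoxygenase of leaf plastids, stood highest in WT after heat. LOX2 had 93.0, 89.7 and 84.3 TPM in mutant 3 days, 216, 214 and 211 TPM in WT 3 days, 126, 113 and 110.2 TPM in mutant control, and 71.5, 67.8 and 71.0 TPM in WT control. No 2 of the 4 groups overlapped, and their order was WT 3 days, mutant control, mutant 3 days and WT control. In the mutant the 3-day libraries therefore lay below the control libraries, while in WT they lay above them. LOX2 made up 85.0 ± 0.970% of the summed TPM of the 13-lipoxygenase genes LOX2, LOX3, LOX4 and LOX6 in mutant 3 days, 87.5 ± 0.841% in WT at 3 days, 85.4 ± 1.11% in mutant control and 79.2 ± 0.413% in WT control (SD, n = 3 each).

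LOX3 and LOX4, 13-lipoxygenases known for a part in flower fertility and in wounding, were expressed at far lower levels. LOX3 had 8.45, 8.28 and 7.67 TPM in mutant 3 days, 16.1, 17.1 and 14.8 TPM in WT 3 days, 4.27, 4.17 and 4.81 TPM in mutant control, and 3.35, 3.69 and 3.69 TPM in WT control. Its groups did not overlap, and both genotypes were higher at 3 days. LOX4 had 6.01, 4.61 and 3.96 TPM in mutant 3 days, 5.48, 5.84 and 4.33 TPM in WT 3 days, 2.75, 1.87 and 2.36 TPM in mutant control, and 1.39, 1.10 and 1.39 TPM in WT control. The 3-day groups of LOX4 overlapped, and the control groups lay below them without overlap, mutant above WT. At these levels the scale log2(TPM + 1), used for all log2 changes below, understates a change. Changes given as times a mean are ratios of mean TPM without the added 1.

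**Figure D1:**
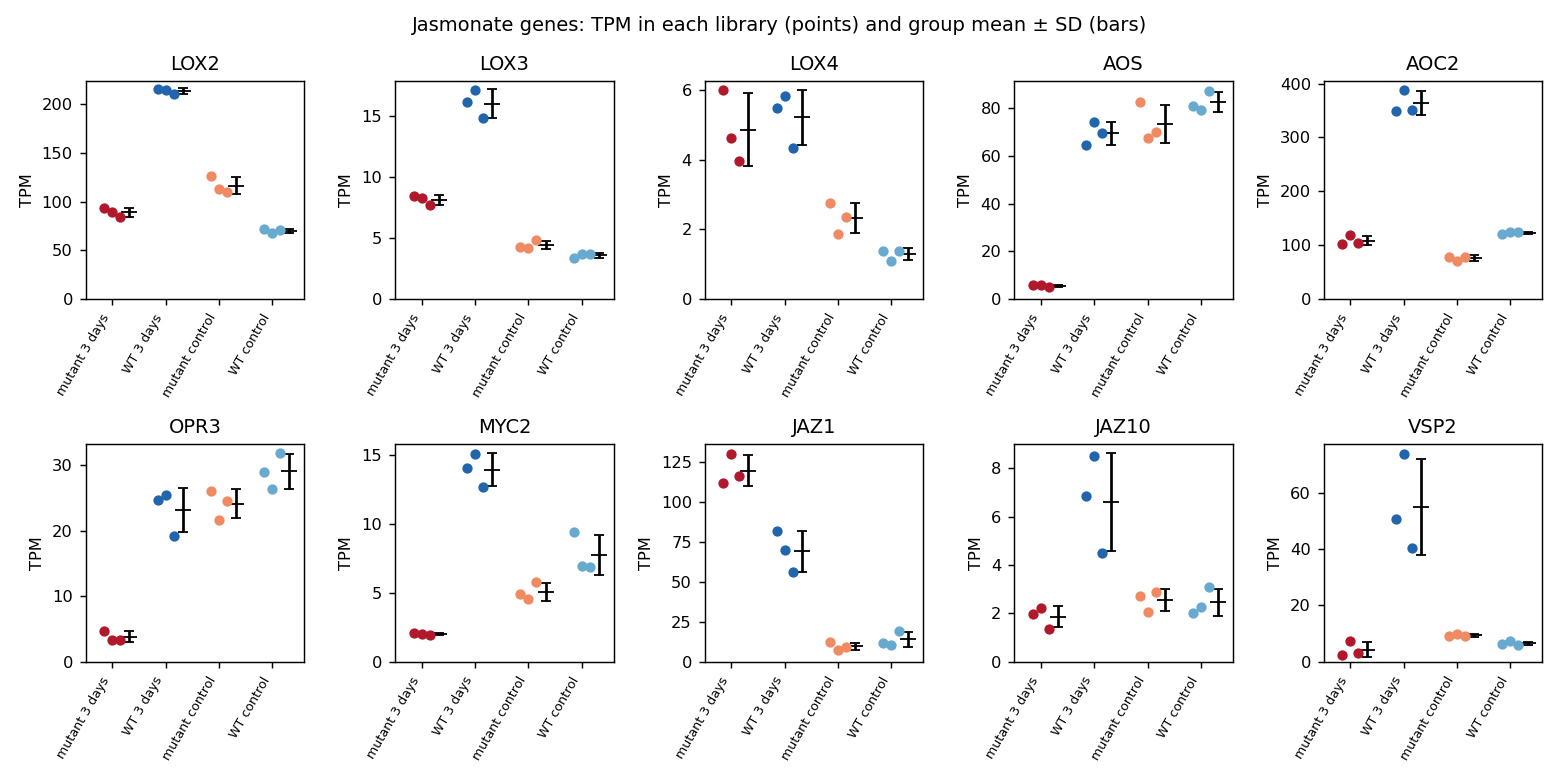
Each panel shows 1 gene, with its level in TPM on the y axis from 0 and the 4 groups on the x axis; points are libraries and bars are the mean ± SD of 3. AOS, OPR3, MYC2, JAZ10 and VSP2 have their lowest group mean in mutant 3 days, and JAZ1 has its highest there (119 ± 9.72 TPM).

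AOS encodes allene oxide synthase, the first enzyme committed to jasmonate and a single-copy gene in Arabidopsis. It had 5.68, 5.72 and 4.96 TPM in mutant 3 days, 64.7, 74.5 and 69.5 TPM in WT 3 days, 82.6, 67.4 and 70.2 TPM in mutant control, and 81.2, 79.3 and 87.3 TPM in WT control. The mutant 3-day libraries stood apart, below all 9 others. In the order WT control, mutant control, WT 3 days and mutant 3 days, the mutant control libraries overlapped with those of both neighbouring groups, WT control and WT 3 days, and mutant 3 days overlapped with none.

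AOC2 encodes an allene oxide cyclase, which sets the ring and stereochemistry of OPDA. AOC2 had 103, 118 and 103 TPM in mutant 3 days, 349.6, 389 and 351 TPM in WT 3 days, 78.8, 70.5 and 78.8 TPM in mutant control, and 121, 124 and 124 TPM in WT control. WT lay above the mutant at both sampling points with no overlap between any groups. AOC2 lies beside AOC1 and AOC3 with 0 genes between neighbours, and reads can be divided between such near-identical copies, so single values are uncertain. The summed TPM of AOC1 to AOC4 was 134 ± 11.3 in mutant 3 days, 453 ± 25.4 in WT at 3 days, 146 ± 8.65 in mutant control and 197 ± 5.27 in WT control (SD, n = 3 each). AOC2 held 80.5 ± 1.86% of that sum in mutant 3 days, 80.1 ± 0.436% in WT at 3 days, 52.2 ± 0.679% in mutant control and 62.4 ± 1.07% in WT control. The neighbour AOC1 averaged 5.89 TPM in mutant 3 days, 50.7 in WT at 3 days, 32.6 in mutant control and 31.2 in WT control. In the mutant the 3-day mean of AOC1 thus lay below its control mean, where that of AOC2 lay above.

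OPR3 encodes the peroxisomal reductase that acts on OPDA. It had 4.73, 3.37 and 3.38 TPM in mutant 3 days, 24.7, 25.5 and 19.2 TPM in WT 3 days, 26.03, 21.68 and 24.56 TPM in mutant control, and 29.0, 26.4 and 31.8 TPM in WT control. Mutant 3 days lay below all other libraries, mutant control and WT 3 days overlapped, and WT control stood highest. AOS and OPR3 were the most alike pair among AOS, AOC2 and OPR3, with a root mean square difference of 0.50 in log2(TPM + 1), each gene centred on its mean over the 12 libraries.

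MYC2, the basic helix-loop-helix factor at the centre of jasmonate signalling, had 2.05, 2.00 and 1.90 TPM in mutant 3 days, 14.0, 15.1 and 12.7 TPM in WT 3 days, 4.89, 4.53 and 5.76 TPM in mutant control, and 9.41, 6.93 and 6.88 TPM in WT control. The groups did not overlap, and the mutant lay below WT at both points. MYC2 held 4.49 ± 0.454% of the summed TPM of MYC2, MYC3 and MYC4 in mutant 3 days, 20.2 ± 1.54% in WT at 3 days, 12.3 ± 1.01% in mutant control and 17.1 ± 2.26% in WT control. MYC3, a related factor with overlapping function, was the most abundant of these factors in every group, with means of 36.7 TPM in mutant 3 days, 34.6 in WT at 3 days, 21.7 in mutant control and 25.7 in WT control. MYC4 averaged 5.87 TPM in mutant 3 days, 20.4 in WT at 3 days, 14.3 in mutant control and 11.5 in WT control.

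JAZ1 encodes a JAZ protein that represses MYC2 and is degraded through COI1. It had 112, 130.3 and 116 TPM in mutant 3 days, 81.6, 69.8 and 56.0 TPM in WT 3 days, 12.1, 7.32 and 9.21 TPM in mutant control, and 11.7, 10.7 and 19.3 TPM in WT control. Both genotypes stood far above their controls at 3 days, the mutant above WT without overlap, while the control groups overlapped. JAZ10, which encodes a repressor whose splice forms differ in how readily they are degraded, was weakly expressed. JAZ10 had 1.97, 2.21 and 1.37 TPM in mutant 3 days, 6.85, 8.52 and 4.49 TPM in WT 3 days, 2.71, 2.05 and 2.88 TPM in mutant control, and 2.02, 2.26 and 3.08 TPM in WT control. WT 3 days lay above the other groups, of which mutant control and WT control overlapped, as did WT control and mutant 3 days. The table gives 1 value per gene, and splice forms were not measured here.

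The JAZ family as a whole did not follow 1 pattern. The summed TPM of JAZ1 to JAZ12 was 357 ± 14.1 in mutant 3 days, 319 ± 41.3 in WT at 3 days, 183 ± 8.61 in mutant control and 185 ± 17.8 in WT control (SD, n = 3 each). JAZ1 held 33.4 ± 1.66% of it in mutant 3 days, 21.6 ± 1.37% in WT at 3 days, 5.20 ± 1.24% in mutant control and 7.44 ± 1.85% in WT control. JAZ10 held 0.516 ± 0.105% in mutant 3 days, 2.05 ± 0.476% in WT at 3 days, 1.39 ± 0.183% in mutant control and 1.32 ± 0.170% in WT control. JAZ12, at means of 97.1 TPM in mutant 3 days, 75.0 in WT at 3 days, 62.0 in mutant control and 67.5 in WT control, was by mean the most abundant JAZ gene in the control groups and in WT 3 days, and JAZ1 was in mutant 3 days. JAZ9, at means of 23.1 TPM in mutant 3 days, 67.7 in WT at 3 days, 35.9 in mutant control and 24.8 in WT control, had its highest mean in WT 3 days like JAZ10. JAZ11, at means of 25.4 TPM in mutant 3 days, 8.77 in WT at 3 days, 12.4 in mutant control and 11.8 in WT control, had its highest in mutant 3 days like JAZ1.

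**Figure D2:**
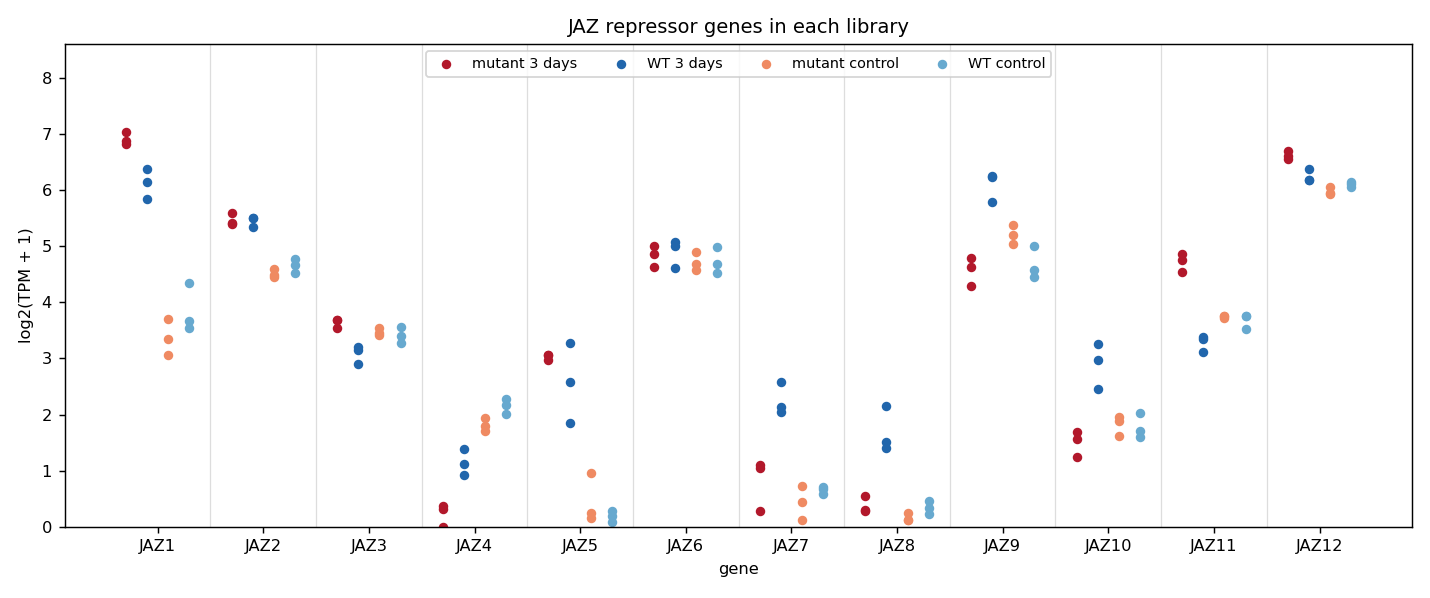
The y axis gives log2(TPM + 1) and the x axis the 12 JAZ repressor genes, with 1 point per library and 1 colour per group. JAZ1 to JAZ3, JAZ11 and JAZ12 have their highest points in mutant 3 days, JAZ5 to JAZ10 in WT 3 days, and JAZ4 in WT control. In JAZ2, JAZ5 and JAZ6 the 3-day groups overlap.

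VSP2 encodes a vegetative storage protein, an acid phosphatase used as a readout of the MYC2 branch. It had 2.23, 7.30 and 3.18 TPM in mutant 3 days, 50.7, 73.8 and 40.6 TPM in WT 3 days, 9.23, 9.85 and 8.98 TPM in mutant control, and 6.24, 7.19 and 6.06 TPM in WT control. WT 3 days stood above all other libraries, mutant control lay above WT control, and of the mutant 3-day libraries the second lay above all WT control libraries and the other 2 below them. VSP1, a near-identical neighbour with 1 gene between them, may share reads with VSP2. VSP1 averaged 1.18 TPM in mutant 3 days, 20.4 in WT at 3 days, 1.72 in mutant control and 5.80 in WT control. The sum of both was 5.41 ± 3.35 TPM in mutant 3 days, 75.5 ± 24.4 in WT at 3 days, 11.1 ± 0.339 in mutant control and 12.3 ± 1.19 in WT control (SD, n = 3 each).

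Mutant and WT differed at 3 days in 9 of the 10 genes. The mutant was lower in 8, among them AOS, OPR3, MYC2 and VSP2, and higher in JAZ1. Differences were tested with limma on log2(TPM + 1), with Benjamini-Hochberg adjustment over all 22462 genes and an adjusted p under 0.05 as the threshold. Of all genes tested, 82.8% passed in this comparison, 24.1% higher and 58.7% lower, so the share of these 10 that passed is near that of all genes. The median over all genes was -0.51 and that of the 10 was -1.57. Median-of-ratios scaling, which assumes that most genes do not change, called 8634 genes higher and 9553 lower where 5403 and 13185 were called without it, and quantile normalization called 9050 higher and 8468 lower. Among the 10 genes median-of-ratios scaling gave 2 higher and 8 lower, and quantile normalization gave 2 higher and 7 lower.

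AOS differed by -3.45 ± 0.083 (log2 ± SE, adjusted p = 1.49e-11), to 0.0784 times the WT mean, or -2.94 relative to the median of all genes. VSP2 differed by -3.50 ± 0.29 (adjusted p = 3.58e-07), to 0.0770 times the WT mean, or -2.99 relative to that median. OPR3 differed by -2.32 ± 0.13 (adjusted p = 1.01e-08, -1.50 with quantile normalization) and MYC2 by -2.32 ± 0.12 (adjusted p = 4.30e-09, -1.41 with quantile normalization). For AOC2 the difference was -1.74 ± 0.066 (adjusted p = 3.61e-10). For LOX2 it was -1.26 ± 0.054 (adjusted p = 1.07e-09, -0.70 with median-of-ratios scaling).

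LOX3 differed by -0.90 ± 0.078 (adjusted p = 4.82e-07), which shrank to -0.38 with median-of-ratios scaling and -0.20 with quantile normalization, still past the threshold. JAZ10 differed by -1.39 ± 0.20 (adjusted p = 4.43e-05), and with quantile normalization by -0.44, which no longer passed (adjusted p = 0.0523). LOX4 did not pass on the deposited scale (-0.09 ± 0.15, adjusted p = 0.579), but it was called higher in the mutant with median-of-ratios scaling (0.37, adjusted p = 0.0292) and with quantile normalization (0.82, adjusted p = 7.43e-05). JAZ1 was higher in the mutant by 0.79 ± 0.21 (adjusted p = 0.00480), or 1.30 above the median of all genes, and by 1.35 with median-of-ratios scaling. The libraries of mutant and WT did not overlap for 9 of the 10 genes, all but LOX4, against 82.9% of all genes. With 3 libraries a group, the smallest two-sided p of an exact permutation test on 1 gene is 0.1.

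**Figure D3:**
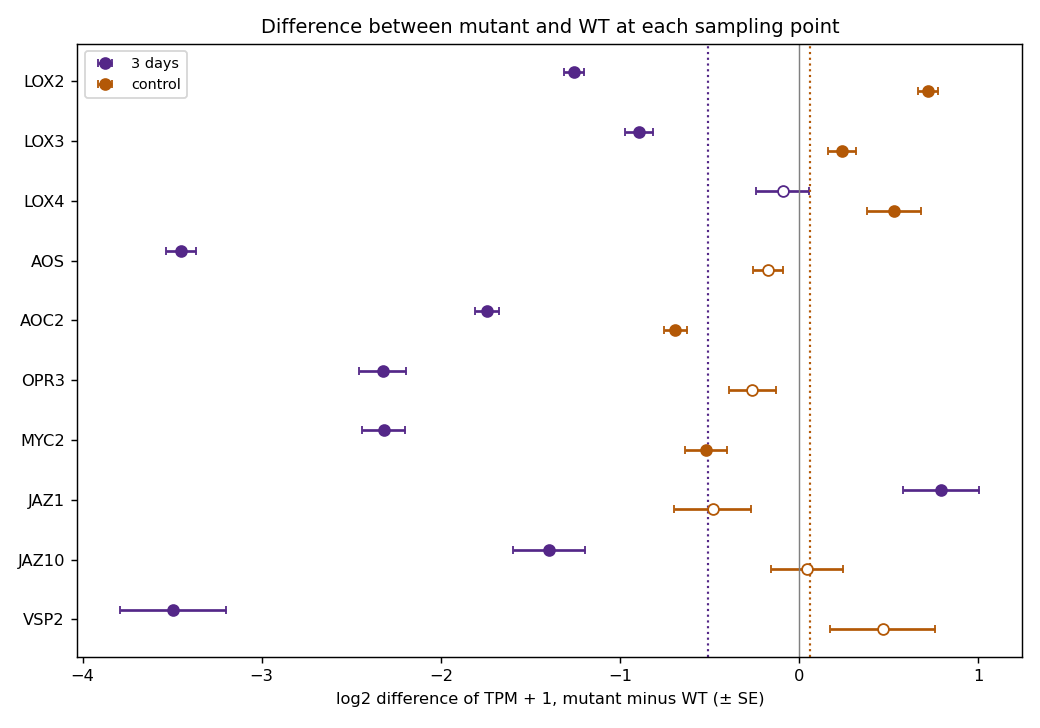
The x axis gives the log2 difference of TPM + 1, mutant minus WT, ± SE, for the 10 genes on the y axis at 3 days (purple) and in control (orange); filled points passed the threshold and dotted lines are the medians of all genes, -0.51 and 0.06. At 3 days JAZ1 lies to the right of 0 and 8 called genes lie to the left; the open LOX4 point (-0.09) turns to 0.37 and 0.82 with the other scalings, and the open JAZ10 control point (0.04) turns to -0.017 with median-of-ratios scaling.

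The other genes of the pathway were taken from a list of 60, of which 55 passed the filter. DAD1, DGL, AT3G11180, ERF1 and THI2.1 did not and were not tested. At 3 days 32 of the 55 were lower in the mutant and 11 higher, which is 58.2% and 20.0% of them, against 58.7% and 24.1% of all genes, so the share that was lower is near that of all genes. Their median was -0.72, against -0.51 over all genes. Median-of-ratios scaling gave 27 lower and 20 higher, and quantile normalization 26 and 16. By role, and to be read against the same 58.7% lower and 24.1% higher, 10 of 15 synthesis genes were lower and 2 higher, 8 of 11 genes of conjugation and turnover were lower and 2 higher, and 7 of 9 response genes were lower with 0 higher. Among the 12 genes of the receptor, JAZ and NINJA, 4 were lower and 5 higher, and among the 8 tested transcription factor genes 3 were lower and 2 higher. Scaled by median of ratios, the synthesis genes had 7 lower and 5 higher, and those of conjugation and turnover 6 and 2. The receptor, JAZ and NINJA group had 4 and 8, and the factor genes 3 and 5, so these balances depend on the scaling. With quantile normalization conjugation and turnover had 5 and 2. The response genes kept 7 and 0 with either scaling. PDF1.2 and PDF1.2B, the response genes not called, averaged 0.06 TPM or less at 3 days in either genotype. JAZ7 and JAZ8, lower on the deposited scale, would not have passed the filter without the WT 3-day libraries. Of all 12 JAZ genes 5 were lower and 4 higher, or 5 and 7 once scaled by median of ratios.

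The largest decreases among genes that reached a mean of 5 TPM were in CLH1, a chlorophyllase gene (-3.28 ± 0.15), VSP1 (-3.26 ± 0.28), AOC1 (-2.92 ± 0.12) and JR1, which encodes a jacalin-related lectin (-2.81 ± 0.14). The largest increase was in ANAC019, a NAC factor gene that MYC2 can activate (3.15 ± 0.24). ANAC019 had 19.9, 12.2 and 9.63 TPM in mutant 3 days, against 0.80, 0.77 and 0.30 TPM in WT 3 days. It reached 1 TPM in no other group, so it passed the filter only through the group where it was high. It could only come out higher here. JAZ11 was higher by 1.43 ± 0.099. CYP94C1, whose enzyme oxidises the active jasmonate conjugate, was higher by 0.96 ± 0.14 (1.71 with quantile normalization). KAT2, a thiolase gene of peroxisomal β-oxidation, was higher by 0.91 ± 0.064 (1.47 with median-of-ratios scaling). All 8 passed limma's test at an adjusted p of 4.84e-05 or lower.

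**Figure D4:**
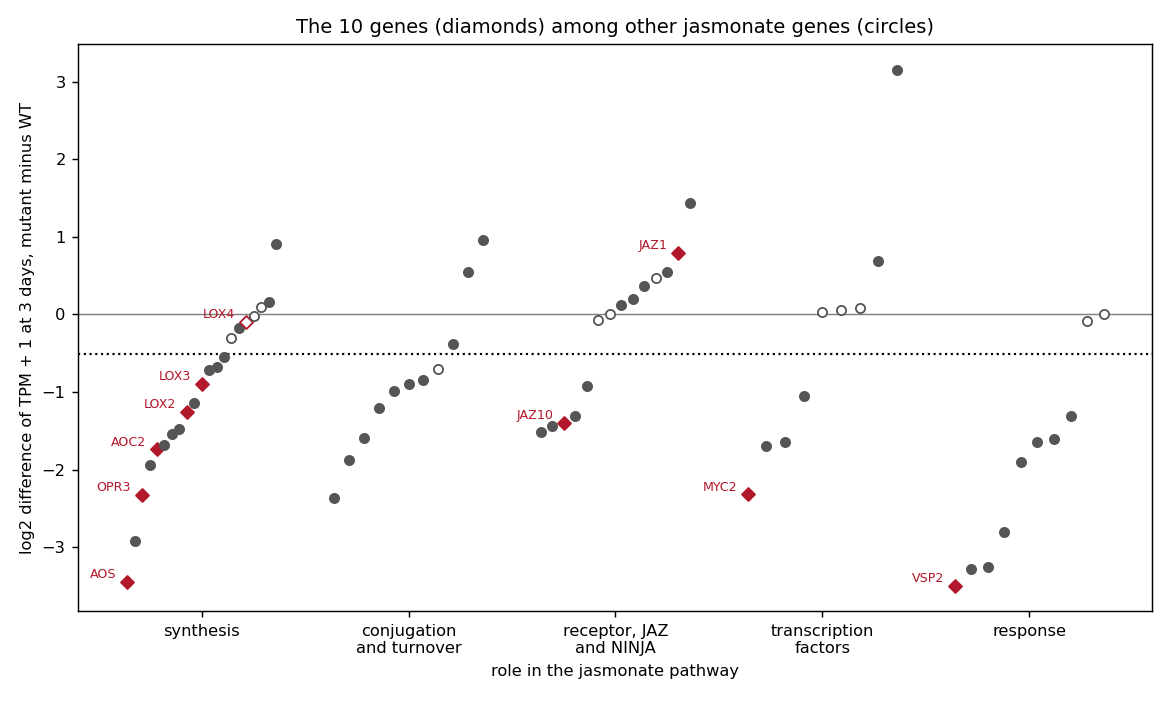
The y axis gives the log2 difference of TPM + 1 at 3 days, mutant minus WT, for the 10 genes (diamonds) and 55 other jasmonate genes (circles), grouped by role on the x axis; filled symbols passed the threshold and the dotted line is the median of all genes (-0.51). Of the 9 response genes 7 passed as lower, while genes of the receptor, JAZ and NINJA group spread to both sides, with counts that change with the scaling.

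In control seedlings 5 of the 10 genes differed between the genotypes. The mutant was higher in LOX2, LOX3 and LOX4 and lower in AOC2 and MYC2, and the other 5 genes did not pass. Of all genes 49.5% passed, 30.3% higher and 19.2% lower, a share near that of the 10. The median over all genes was 0.06 and that of the 10 was -0.06. The split of all genes, 6803 higher and 4313 lower, became 5386 and 5351 with median-of-ratios scaling. That of the 10 became 2 higher and 5 lower, and 3 higher and 4 lower with quantile normalization. Over all genes quantile normalization gave 5962 higher and 5057 lower.

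LOX2 was higher in mutant control by 0.72 ± 0.054 (adjusted p = 1.50e-06), 1.66 times the WT control mean. LOX4 was higher by 0.53 ± 0.15 (adjusted p = 0.0119), and without mutant control replicate 1 by 0.44 (adjusted p = 0.05004, not past the threshold). LOX3 was higher by 0.24 ± 0.078 (adjusted p = 0.0226). It did not pass with median-of-ratios scaling (0.18, adjusted p = 0.0666), or without mutant control replicate 3 (0.19, adjusted p = 0.0891), and its adjusted p was 0.0801 when WT control replicate 1 was left out (0.21). AOC2 differed by -0.69 ± 0.066 (adjusted p = 8.24e-06) and MYC2 by -0.52 ± 0.12 (adjusted p = 0.00349).

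The values that did not pass were -0.17 for AOS, -0.26 for OPR3, -0.48 for JAZ1, 0.04 for JAZ10 (-0.017 with median-of-ratios scaling) and 0.47 for VSP2. With median-of-ratios scaling AOS (-0.26, adjusted p = 0.0243), OPR3 (-0.34, adjusted p = 0.0366) and JAZ1 (-0.56, adjusted p = 0.0486) passed as lower in the mutant. OPR3 and JAZ1 passed with quantile normalization too (adjusted p = 0.0316 and 0.0494). JAZ1 also passed when mutant control replicate 1 was left out (-0.65, adjusted p = 0.0369) and when WT control replicate 2 was (-0.63, adjusted p = 0.0442), and AOS without mutant control replicate 1 (-0.26, adjusted p = 0.0174). VSP2 passed as higher when only the control groups were fitted (adjusted p = 0.00591). The libraries did not overlap for 7 of the 10 genes, against 59.9% of all genes.

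Mutant control had higher levels than WT control in 9 and lower levels in 14 of the 55 other pathway genes, or 8 and 18 with median-of-ratios scaling. The 9 and 14 are 16.4% and 25.5% of the list, against 30.3% higher and 19.2% lower over all genes, and the median was 0.0048, against 0.06. No response gene was higher and 5 of 9 were lower. Of these 5, PDF1.2 and PDF1.2B reached 1 TPM only in WT control. They passed the filter only through that group and could only come out lower here. All 12 genes of the receptor, JAZ and NINJA group gave 2 higher and 0 lower, or 2 and 3 with median-of-ratios scaling. The genes named next reached a mean of 5 TPM in the higher group. Among them the largest decreases were in ORA59 (-1.39 ± 0.12), VSP1 (-1.32 ± 0.28), PR4 (-0.82 ± 0.16) and CORI3 (-0.61 ± 0.16). ORA59 is a factor gene of the jasmonate and ethylene branch. PR4 is a pathogenesis-related gene, and CORI3 encodes a coronatine-induced cystine lyase. VSP1 and VSP2 thus stood on opposite sides of 0, with VSP2 not past the threshold. With that minimum the largest increases were in ACX5 (0.78 ± 0.087), FAD8 (0.61 ± 0.11), JAZ9 (0.53 ± 0.18) and FAD7 (0.52 ± 0.048). ACX5 is an acyl-CoA oxidase gene, and FAD8 and FAD7 are plastid desaturase genes. These 8 had an adjusted p of 0.0262 or lower, and JAZ9 passed or failed with single libraries (adjusted p = 0.102 without WT control replicate 1).

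In WT all 10 genes changed between control and 3 days, against 81.3% of all genes (54.9% higher, 26.4% lower). The number was 8 higher and 2 lower, on the deposited scale and with either other scaling, and no gene's groups overlapped, against 83.6% of all genes without overlap. The median over all genes was 0.39 and that of the 10 was 1.49. For all genes the split of 12339 higher and 5932 lower became 8917 and 8878 with median-of-ratios scaling. VSP2 rose by 2.86 ± 0.29 (adjusted p = 2.29e-06), 8.47 times the WT control mean and 2.47 above the median of all genes. JAZ1 rose by 2.26 ± 0.21 (adjusted p = 1.15e-06), 4.98 times. LOX3 rose by 1.89 ± 0.078, LOX2 by 1.59 ± 0.054, AOC2 by 1.55 ± 0.066 and LOX4 by 1.43 ± 0.15, each at an adjusted p of 2.71e-06 or lower.

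JAZ10 rose in WT by 1.12 ± 0.20 (adjusted p = 2.80e-04, 0.74 with quantile normalization). MYC2 rose by 0.78 ± 0.12 (adjusted p = 6.96e-05), but by 0.36 with median-of-ratios scaling and 0.44 with quantile normalization, both past the threshold. AOS and OPR3 fell a little. AOS changed by -0.25 ± 0.083 (adjusted p = 0.0160) and by -0.69 with median-of-ratios scaling. It did not pass without WT 3 days replicate 1 (-0.20, adjusted p = 0.0671), nor without WT control replicate 3 (-0.21, adjusted p = 0.0633). OPR3 changed by -0.32 ± 0.13 (adjusted p = 0.0387) and by -0.76 with median-of-ratios scaling. Leaving out WT 3 days replicate 3 gave -0.20 (adjusted p = 0.168), leaving out WT control replicate 1 gave -0.32 (adjusted p = 0.0758) and leaving out WT control replicate 3 gave -0.26 (adjusted p = 0.131). OPR3 also missed the threshold with a pseudocount of 0.1 (adjusted p = 0.0544) or with no filter (adjusted p = 0.0566).

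Of the 55 other genes 35 rose in WT and 10 fell, or 25 and 17 once scaled by median of ratios, and 26 and 18 after quantile normalization. The 35 and 10 are 63.6% and 18.2% of the list, against 54.9% and 26.4% of all genes, and the median was 0.43, against 0.39. Of the 11 genes of conjugation and turnover 10 rose and 0 fell, or 8 and 1 with median-of-ratios scaling. The largest increases were in AT2G38240 (4.80 ± 0.32), CORI3 (3.67 ± 0.16), JRG21 (AT3G55970, 3.34 ± 0.36) and the tyrosine aminotransferase gene TAT3 (3.09 ± 0.37). AT2G38240 had 42.6, 38.5 and 16.8 TPM in WT 3 days, against 0, 0 and 0.42 TPM in WT control, so its fold depends on the pseudocount (7.45 with 0.1), as does that of TAT3 (5.30). Decreases were ranked among genes that reached a mean of 5 TPM in the higher group. The largest were in FAD8 (-3.16 ± 0.11), ORA59 (-1.30 ± 0.12), JR1 (-0.75 ± 0.14) and AOC4 (-0.71 ± 0.093). With median-of-ratios scaling JR1 stood at -1.20 and AOC4 at -1.14. These 8 had an adjusted p of 4.50e-04 or lower.

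In the mutant 9 of the 10 genes changed between control and 3 days, against 85.9% of all genes (39.4% higher, 46.5% lower). JAZ1, LOX4, LOX3 and AOC2 rose, AOS, OPR3, VSP2, MYC2 and LOX2 fell, and JAZ10 did not pass. JAZ10 was also the gene whose groups overlapped, where 85.8% of all genes had none. The median over all genes was -0.13 and that of the 10 was -0.35. JAZ1 rose by 3.54 ± 0.21 (adjusted p = 1.27e-08), 12.5 times the mutant control mean. AOS fell by 3.52 ± 0.083 (adjusted p = 3.11e-12), to 0.0743 times, and OPR3 fell by 2.39 ± 0.13 (adjusted p = 4.90e-09), to 0.159 times. LOX4 rose by 0.81 ± 0.15 and LOX3 by 0.75 ± 0.078, or 1.33 and 1.19 with quantile normalization.

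VSP2 fell by 1.10 ± 0.29 in the mutant (adjusted p = 0.00404), but with quantile normalization by 0.56, which did not pass (adjusted p = 0.0866). MYC2 fell by 1.02 ± 0.12 (adjusted p = 5.66e-06), or by 0.39 with quantile normalization. AOC2 rose by 0.50 ± 0.066 (adjusted p = 1.72e-05), with quantile normalization by 0.12, which did not pass (adjusted p = 0.106). LOX2 fell by 0.38 ± 0.054 (adjusted p = 3.48e-05), by 0.19 with median-of-ratios scaling and by 0.74 with quantile normalization. JAZ10 gave -0.32 ± 0.20 (adjusted p = 0.157) and 0.26 with quantile normalization. With that normalization 3 of the 10 rose and 4 fell, against 10036 and 9196 of all 22462 genes.

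Of the 55 other genes 23 rose in the mutant and 21 fell, or 25 and 20 with median-of-ratios scaling. Over all genes 8857 rose and 10438 fell, or 9725 and 9661 with that scaling. The 23 and 21 are 41.8% and 38.2% of the list, against 39.4% and 46.5% of all genes, and the median was 0.11, against -0.13. Synthesis genes had 5 higher and 9 lower of 15, and genes of conjugation and turnover 7 higher and 4 lower of 11. The largest increases were in AT2G38240 (4.01 ± 0.32, or 6.21 with a pseudocount of 0.1), ANAC019 (3.20 ± 0.24), CYP94C1 (2.67 ± 0.14) and CORI3 (2.63 ± 0.16). ANAC019 passed the filter only through mutant 3 days, so it could only rise here. The largest decreases were in FAD8 (-4.45 ± 0.11), JR1 (-3.70 ± 0.14), CLH1 (-2.94 ± 0.15) and AOC1 (-2.29 ± 0.12). These 8 had an adjusted p of 1.71e-07 or lower.

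**Figure D5:**
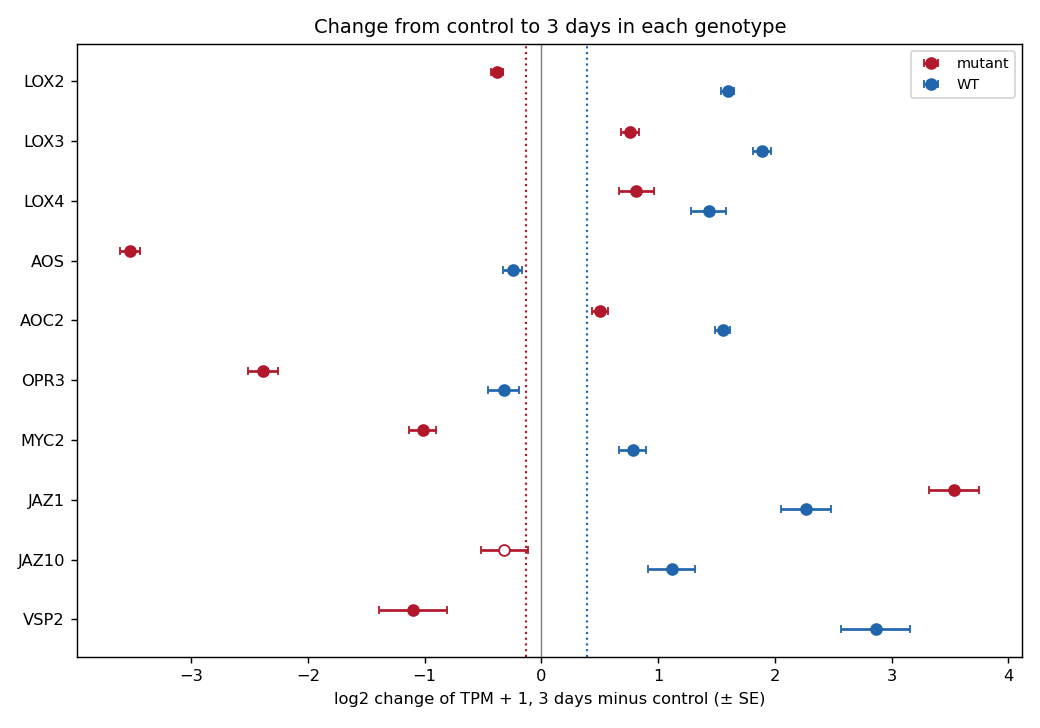
The x axis gives the log2 change of TPM + 1, 3 days minus control, ± SE, for the 10 genes on the y axis in the mutant (red) and WT (blue); filled points passed the threshold and dotted lines are the medians of all genes, -0.13 and 0.39. JAZ1 is the gene whose mutant point lies to the right of its WT point; the order of the LOX4 points turns with quantile normalization, as does the sign of the open JAZ10 point (-0.32, or 0.26).

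The responses of the genotypes differed in all 10 genes by the interaction term of the same limma fit, against 76.9% of all genes (20.6% higher, 56.3% lower in the mutant than in WT). The mutant's response was lower in 9 and higher in JAZ1. The median over all genes was -0.55 and that of the 10 was -1.62, and the split of all genes moved from 4620 higher and 12657 lower to 8262 and 8491 with median-of-ratios scaling. With that scaling 1 of the 10 was higher and 8 lower, and with quantile normalization 1 and 7, where all genes gave 8319 and 7800. The largest differences were in VSP2 (-3.96 ± 0.41, adjusted p = 3.83e-06), AOS (-3.28 ± 0.12, adjusted p = 7.14e-10), OPR3 (-2.06 ± 0.19, adjusted p = 1.02e-06) and LOX2 (-1.98 ± 0.077, adjusted p = 1.27e-09). Relative to the median of all genes these were -3.41, -2.72, -1.51 and -1.42, and OPR3 was -1.15 with quantile normalization.

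For MYC2 the difference was -1.80 ± 0.17 (adjusted p = 1.39e-06, -0.83 with quantile normalization). For JAZ10 it was -1.44 ± 0.28 (adjusted p = 6.68e-04), at -0.94 with median-of-ratios scaling and at -0.48 with quantile normalization, where it did not pass (adjusted p = 0.136). LOX3 (-1.14 ± 0.11, adjusted p = 1.90e-06) and AOC2 (-1.05 ± 0.093, adjusted p = 9.11e-07) shrank with median-of-ratios scaling to -0.56 and -0.41, and LOX3 with quantile normalization to -0.42, all still past the threshold. LOX4 (-0.62 ± 0.21, adjusted p = 0.0186) stood at -0.07 relative to the median of all genes. It did not pass with median-of-ratios scaling (-0.11, adjusted p = 0.616) and turned to 0.32 with quantile normalization (adjusted p = 0.120). JAZ1 was higher by 1.27 ± 0.30 (adjusted p = 0.00243), or 1.83 above the median of all genes.

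Of the 55 other genes 30 had a lower response in the mutant and 12 a higher one, or 21 and 22 once scaled by median of ratios, and 23 and 17 after quantile normalization. The 30 and 12 are 54.5% and 21.8% of the list, near the 56.3% and 20.6% of all genes, and the median was -0.78, against -0.55. By role, 11 of 15 synthesis genes were lower and 1 higher (7 and 6 with median-of-ratios scaling). Of 9 response genes 7 were lower and 2 higher (4 and 2 with that scaling). On the deposited scale the 2 higher were PDF1.2 and PDF1.2B, at means of 2.23 and 1.13 TPM in WT control. In every other group both averaged 0.163 TPM or less, so they mark a fall to near 0 in WT. Both passed the filter only through WT control. The largest decreases were in CLH1 (-3.59 ± 0.22), AOC1 (-2.98 ± 0.17), JR1 (-2.95 ± 0.20) and TAT3 (-2.26 ± 0.52), the last at -1.23 with quantile normalization and -3.52 with a pseudocount of 0.1. Increases were ranked among genes that reached a mean of 5 TPM in at least 1 group. The largest were in ANAC019 (3.05 ± 0.33), CYP94C1 (1.37 ± 0.20), JAZ11 (1.37 ± 0.14) and KAT2 (1.23 ± 0.091). ANAC019 passed the filter only through mutant 3 days, the group where it was high. CYP94C1 stood at 2.11 with quantile normalization and KAT2 at 1.87 with median-of-ratios scaling. These 8 had an adjusted p of 0.00195 or lower.

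Each gene was also set beside the gene outside the pathway list whose pattern over the 12 libraries was most like it, among 8878 genes with a symbol and by the root mean square difference in centred log2(TPM + 1). The nearest matches were RAD51C for LOX2 (0.07), AVA-P4 for LOX3 (0.10), NIK3 for AOS (0.10) and NPC3 for MYC2 (0.11). NIK3 (AT1G60800) averaged 2.43 TPM in mutant 3 days, 36.5 in WT at 3 days, 40.3 in mutant control and 41.8 in WT control. For OPR3 the match was MLO6 (0.13), for LOX4 PK1 (0.14), for AOC2 ATR1 (0.16), for JAZ10 GulLO3 (0.17), for JAZ1 PSK2 (0.27) and for VSP2 JAL23 (0.41). Among the 10 genes LOX2 and JAZ10 were most alike (0.34), followed by LOX3 and LOX4 (0.35), and AOS and JAZ1 were least alike (2.83). These distances describe 12 libraries of 4 groups and share all of them.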

How the data were processed

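TPM per gene was deposited by the authors as 1 table of the 12 seedling libraries, from oligo dT enriched RNA and an Illumina TruSeq kit, per the labels' protocols. RSEM and the TAIR10 build were used, per the submitters' processing notes. For versions, aligner, strand setting and depth the sources used here give nothing. Near-identical copies can share reads in RSEM. The table had 37826 lines, of which 1 was empty, and 37572 genes matched a RefSeq locus, which gave the names. No genome coordinates or sequences were used.

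Genes that reached 1 TPM in 3 or more libraries were kept. limma 3.58.1 in R 4.3.3 fitted log2(TPM + 1) with 1 mean per group over all 12 libraries and an intensity trend. The p-values were Benjamini-Hochberg adjusted over the genes kept and called under 0.05. The fit was first run on simulated data in which few genes changed. Calls here were far more widespread, so that run does not speak for them. Alternatives were 2 scalings, a pseudocount of 0.1, no filter, no trend, only the groups compared, a replicate block and each library left out. The 10 genes, MAC3A and MAC3B were always named. From the pathway list each comparison names the 4 largest called increases and decreases with a mean of at least 5 TPM in the higher group. The members and lists were chosen with earlier results of these data known.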

Additional observations from a re-analysis of the deposited data

Results flagged for a closer look

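On the deposited scale the change from control to 3 days differed between mutant and WT in each of the 10 genes. The test was limma's interaction test on log2(TPM + 1). The difference, mutant minus WT, was -3.96 for VSP2, -3.28 for AOS, -2.06 for OPR3, -1.98 for LOX2, -1.80 for MYC2, -1.44 for JAZ10, -1.14 for LOX3, -1.05 for AOC2, -0.62 for LOX4 and 1.27 for JAZ1. In VSP2, LOX2 and MYC2 the 3-day libraries lay below control in the mutant and above control in WT. Of all genes 76.9% passed the same test, and the median over all genes was -0.55. LOX4 lay near that median, did not pass with either other scaling, and its sign turned with quantile normalization. JAZ10 did not pass with quantile normalization.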

How the results depend on the processing

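Of 940 values of the 10 genes under the alternatives, 907 kept their direction and their side of the threshold, 9 came to pass it, 16 no longer passed and 8 reversed, and all 282 counts of calls in either direction together stayed within 1.5 times. Of 564 counts in 1 direction 21 moved further, 7 with each scaling. Higher calls over all genes at 3 days went to 8634 and 9050 with median-of-ratios scaling and quantile normalization, against 5403. Of the 10 genes 5 and 4 were then lower in control, against 2, and 4 without mutant control replicate 1. In the WT response 0 or 1 of the 10 fell, against 2, with a pseudocount of 0.1, no filter, or without WT 3 days replicate 1 or 3 or WT control replicate 1 or 3. JAZ10 in control turned to -0.017 with median-of-ratios scaling, -0.026 without mutant control replicate 3 and -0.048 without WT control replicate 1, in a range of -0.048 to 0.17 over single libraries left out. LOX4 at 3 days turned to 0.37 with median-of-ratios scaling, 0.82 with quantile normalization and 0.021 without mutant 3 days replicate 3, in a range of -0.23 to 0.021. With quantile normalization the mutant's JAZ10 response (-0.32) turned to 0.26 and the LOX4 response difference, called at -0.62, to 0.32. MAC3B in the mutant's response (-0.12) turned to 0.050 with median-of-ratios scaling and 0.23 with quantile normalization. The cause was not tested. Without 1 library at a time, 4 to 6 of the 10 genes passed in control, 9 at 3 days, 8 to 10 in the WT response, 9 in the mutant response and 10 in the response difference. Same-numbered libraries did not deviate together (r of -0.096 to 0.077 over 18 pairs, 0 over 0.1). A library correlated best with its own number in 10 of 36 comparisons. With 3 libraries a group this cannot settle whether same-numbered libraries shared a batch or culture. With the replicate block 10958 genes were called in control, against 11116, and 18530 at 3 days, against 18588, with the counts of the 10 genes unchanged at 5 and 9. TPM gives no depth, which limits what can be said of genes at a few TPM such as LOX4 and JAZ10.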
